A study of Nicotiana plumbaginifolia and Nicotiana benthamiana and Nicotiana rustica with 81 samples.

Results

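XM_016644811.1 (LOC107818761) and XM_016582512.1 (LOC107763989) are 2 of the 38230 N. tabacum transcripts in a table of nectary expression across the tobacco genus. Both are described there as MYB305-like, and both have the Arabidopsis gene AT5G40350 (MYB24) as their match. They were chosen by these transcript identifiers. The table gives no genome position for them, and their order along a chromosome was not used here.

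MYB305 belongs to a small family of R2R3 MYB transcription factors of the flower, whose Arabidopsis relatives MYB21 and MYB24 act downstream of jasmonate in petals, stamens and nectaries. In ornamental tobacco MYB305 is known as a nectary regulator that activates the genes of the nectarins, the proteins of nectar, and that affects the starch stored in the gland before secretion. Members of the family were first described as activators of phenylpropanoid genes in snapdragon flowers.

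Nectaries are the nectar-secreting glands of the flower, and their RNA was sequenced in Nicotiana benthamiana, N. rustica, N. glauca, N. plumbaginifolia, N. bonariensis and N. clevelandii. The nectaries were cut out by hand at flower stage 6 (immature), stage 9 (before secretion), stage 12 (anthesis) and the post secretory stage, and N. plumbaginifolia also gave leaf, ovary and sepal. The 81 libraries form 27 groups of 3. The sample titles name the last tissue sepal, while the extraction protocol mentions stems and a smaller number of libraries, so every sepal value here rests on the titles. The plants were grown from germplasm seed under long days to flowering, with no other treatment named, and the labels do not say whether the 3 libraries of a group came from separate plants.

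All values are the authors' group means of normalized counts with the authors' SD (n = 3 throughout). The columns of N. bonariensis and N. clevelandii are equal in all 38230 transcripts, so they are counted once and called the joint profile. Which of these species the values come from cannot be read from the table, and they may stand for only 1 of them. There are thus 5 profiles and 23 distinct groups. Depth per library is not given. The median SD over transcripts with a mean of at least 100 was between 4.55% and 24.7% of the mean in the nectary groups and 32.3% in leaf, and the nectary groups of widest spread were the post secretory stage of the joint profile and of N. rustica and stage 12 of N. glauca. Reads of all species were expressed as N. tabacum transcripts, and the sources used here do not say how reads shared by near-identical copies were assigned, so the division of signal between the copies of this family is uncertain. In whole dissected glands, fewer cells of a type and less RNA per cell cannot be told apart.

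XM_016644811.1 was present in the nectaries of every profile before and during secretion and lower afterwards, at 43 or less in every profile but N. plumbaginifolia. Its mean in N. benthamiana was 3541 (SD 177) at stage 6, 4139 (SD 99) at stage 9, 5573 (SD 194) at stage 12 and 10 (SD 3) after secretion. In N. rustica it was 4379 (SD 79), 5900 (SD 154), 3039 (SD 23) and 43 (SD 4) in the same order. In N. glauca it was 2028 (SD 48), 2531 (SD 103), 3410 (SD 1088) and 2 (SD 1). The highest stage was thus stage 12 in N. benthamiana and stage 9 in N. rustica, stages 9 and 12 of N. glauca were within their summed SDs, and the last stage was the lowest in each. In N. plumbaginifolia the means were 749 (SD 47), 1185 (SD 35), 2209 (SD 30) and 555 (SD 49). In the joint profile they were 1734 (SD 91), 2095 (SD 242), 2029 (SD 166) and 18 (SD 6). N. plumbaginifolia began lowest of all profiles and kept the highest level after secretion.

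XM_016582512.1 divided the profiles. Its mean in N. benthamiana was 10833 (SD 292) at stage 6, 8744 (SD 98) at stage 9, 2943 (SD 38) at stage 12 and 7 (SD 1) after secretion. In N. glauca it was 5977 (SD 171), 12871 (SD 166), 18242 (SD 8271) and 5 (SD 0). In N. plumbaginifolia it was 5048 (SD 165), 5155 (SD 289), 4091 (SD 50) and 949 (SD 21). These profiles carried it at 2943 or above until anthesis, and the wide SD at stage 12 of N. glauca leaves its level there poorly fixed. In N. rustica the means were only 16 (SD 2), 36 (SD 3), 21 (SD 4) and 0 (SD 0). In the joint profile they were 117 (SD 13), 141 (SD 20), 94 (SD 45) and 0 (SD 0). Neither profile came near the level of the others at any of the first 3 stages, and both list the transcript at 0 after secretion.

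**Figure D1:**
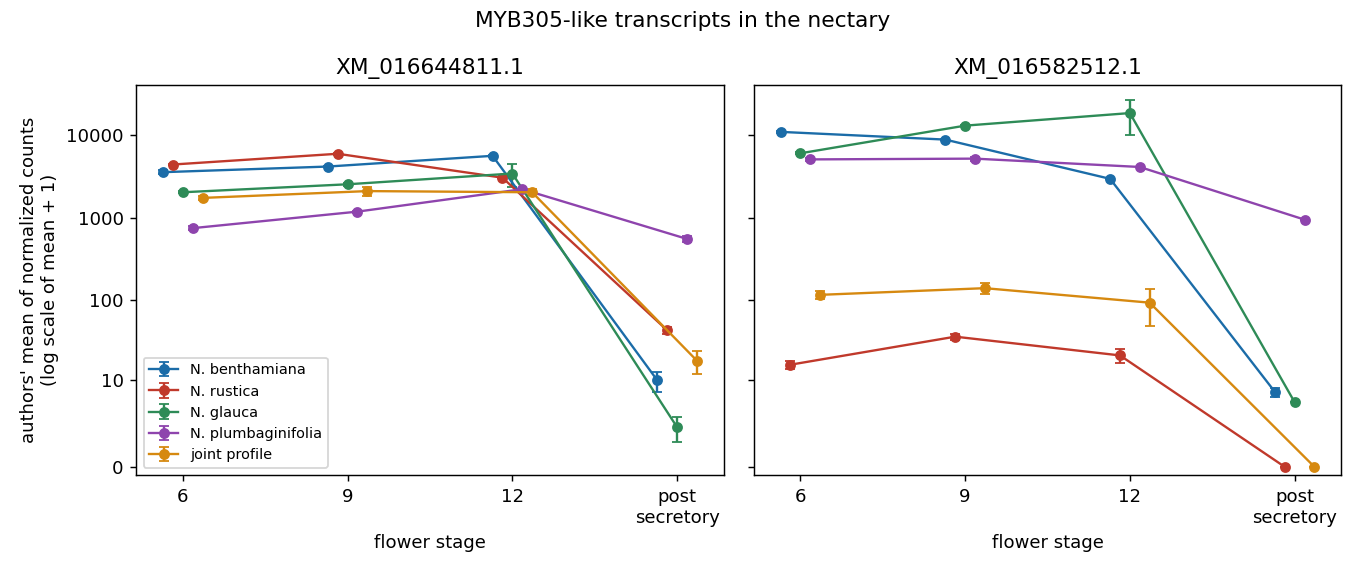
Authors' mean of normalized counts (vertical axis, log scale of mean + 1) against flower stage for XM_016644811.1 on the left and XM_016582512.1 on the right, with 1 line per profile, slightly offset, and bars for the authors' SD (n = 3). XM_016644811.1 stays between 749 and 5900 in every profile up to stage 12, while XM_016582512.1 reaches 18242 in N. glauca and at most 36 in N. rustica.

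The distance between profiles therefore differed by transcript. The highest profile mean of XM_016644811.1 was 5.85 times the lowest at stage 6, 4.98 times at stage 9 and 2.75 times at stage 12. For XM_016582512.1 the same ratios were 677, 358 and 869. After secretion the ratio for XM_016644811.1 was 277.5, between N. plumbaginifolia and N. glauca, and none can be given for XM_016582512.1, whose lowest profiles are listed at 0.

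Ranked over all 23 groups, XM_016644811.1 was highest in stage 9 of N. rustica and stage 12 of N. benthamiana, whose difference of 327 was below the sum of their SDs, 348. Stage 6 of N. rustica and stage 9 of N. benthamiana followed, each separated from its neighbours by more than their SDs. In all, 9 of its neighbouring pairs were within their summed SDs, among them stage 12 of N. plumbaginifolia, stages 9 and 12 of the joint profile and stage 6 of N. glauca, which form a run from 2209 to 2028. XM_016582512.1 was highest in stages 12 and 9 of N. glauca, which were not separated beyond their SDs, and then in stages 6 and 9 of N. benthamiana, which were. Of its neighbouring pairs, 8 were within their summed SDs or equal, including stages 9 and 6 of N. plumbaginifolia, and all those between the joint stages 9, 6 and 12.

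Within each profile, stages were compared by a test built from the authors' means and SDs with variances moderated over all transcripts (limma), and every change is a difference in log2 of mean plus 1. Folds are ratios of the means without that 1, so they are larger than the log2 change where a mean is low. From stage 6 to stage 9, XM_016644811.1 rose in all 5 profiles. It rose by 0.23 (SE 0.04, adjusted p = 0.000304) in N. benthamiana, where 29% of all transcripts tested rose. The rise was 0.43 (SE 0.04, adjusted p = 3.05e-07) in N. rustica, against 30.7% of transcripts. In N. glauca it was 0.32 (SE 0.04, adjusted p = 2.62e-06), against 36.8%. A rise was common among all transcripts in each of these profiles. In N. plumbaginifolia the rise was 0.66 (SE 0.07, adjusted p = 1.96e-06), against 25.2%. In the joint profile it was 0.27 (SE 0.09, adjusted p = 0.0356), against 22.8%, and that call was lost when the means were rescaled by their median ratios (0.25, adjusted p = 0.0535) and without a variance trend (adjusted p = 0.121).

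XM_016582512.1 took different directions over the same step. It rose by 1.12 (SE 0.23, adjusted p = 0.000618) in N. rustica, between means of 16 and 36. It rose by 1.11 (SE 0.03, adjusted p = 9.46e-15) in N. glauca, which is 2.15-fold. In N. benthamiana it fell by 0.31 (SE 0.04, adjusted p = 2.17e-06), as did 29.9% of transcripts there. The direction in N. benthamiana was thus opposite to that of XM_016644811.1 in the same libraries. Its estimate of 0.03 (SE 0.06, adjusted p = 0.681) in N. plumbaginifolia and of 0.27 (SE 0.16, adjusted p = 0.203) in the joint profile did not pass. The authors' deposited calls for this step were fewer. They name XM_016644811.1 in N. plumbaginifolia only and XM_016582512.1 in N. glauca only, where 18% and 16.6% of all transcripts were called.

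From stage 9 to stage 12, as secretion begins, the transcripts parted in N. benthamiana and N. plumbaginifolia. In N. benthamiana XM_016644811.1 rose by 0.43 (SE 0.05, adjusted p = 8.64e-07), against 33.6% of transcripts that rose. XM_016582512.1 fell there by 1.57 (SE 0.05, adjusted p = 1.24e-15), a 2.97-fold drop, against 27.2% that fell. In N. plumbaginifolia XM_016644811.1 rose by 0.90 (SE 0.07, adjusted p = 4.00e-08), against 24.2%. XM_016582512.1 fell there by 0.33 (SE 0.07, adjusted p = 0.00116), against 22.1%. Added together, the pair changed by -0.60 in N. benthamiana (adjusted p = 1.17e-08) and by -0.0091 in N. plumbaginifolia (adjusted p = 0.926). These sums weigh each transcript by its normalized counts, not per length.

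In N. rustica both fell over this step, XM_016644811.1 by 0.96 (SE 0.04, adjusted p = 2.08e-14) and XM_016582512.1 by 0.75 (SE 0.23, adjusted p = 0.0104), against 20.1% of transcripts that fell. In N. glauca the estimates were 0.43 (SE 0.23, adjusted p = 0.182) and 0.50 (SE 0.35, adjusted p = 0.294), where 22.6% of transcripts rose, and the libraries of stage 12 spread widely. In the joint profile they were -0.05 (SE 0.11, adjusted p = 0.816) and -0.58 (SE 0.28, adjusted p = 0.186), where 7.54% fell. For this step the authors called only XM_016582512.1 in N. benthamiana and only XM_016644811.1 in N. plumbaginifolia and N. rustica. They called 19.6%, 15.7% and 15.5% of all transcripts there. The opposite change of the other member in N. benthamiana and N. plumbaginifolia was thus not called by them.

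From stage 6 to anthesis as a whole, XM_016644811.1 rose by 1.56 (SE 0.06, adjusted p = 4.77e-11) in N. plumbaginifolia, by 0.75 (SE 0.23, adjusted p = 0.0294) in N. glauca and by 0.65 (SE 0.05, adjusted p = 1.01e-11) in N. benthamiana. It fell by 0.53 (SE 0.04, adjusted p = 1.51e-09) in N. rustica. Its rise of 0.23 (SE 0.08, adjusted p = 0.0294) in the joint profile was lost after rescaling (0.17, adjusted p = 0.0933) and without a variance trend (adjusted p = 0.114). In the same order of profiles, the share of all transcripts that rose was 28.2%, 34.2% and 34.1%, the share that fell in N. rustica 29%, and the share that rose in the joint profile 29.5%. XM_016582512.1 rose by 1.61 (SE 0.33, adjusted p = 0.00707) in N. glauca. It fell by 1.88 (SE 0.05, adjusted p = 5.51e-22) in N. benthamiana and by 0.30 (SE 0.05, adjusted p = 6.94e-05) in N. plumbaginifolia, where 28.6% and 31.6% of transcripts fell. Its estimates of 0.37 (adjusted p = 0.233) in N. rustica and -0.31 (adjusted p = 0.325) in the joint profile did not pass. The authors did not call XM_016644811.1 in N. rustica or the joint profile, where they called 24.5% and 26.8% of all transcripts. Nor did they call XM_016582512.1 in N. plumbaginifolia, where they called 17.9%.

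After secretion both transcripts fell in every profile. XM_016644811.1 fell by 8.99 (SE 0.16, adjusted p = 2.03e-11) in N. benthamiana, a 557-fold drop, against 33.5% of transcripts that fell there. It fell by 10.15 (SE 0.34, adjusted p = 2.16e-05) in N. glauca, a 1705-fold drop, against 28.1%. It fell by 6.11 (SE 0.11, adjusted p = 3.26e-06) in N. rustica, a 70.7-fold drop, against 17.6%, and by 6.74 (SE 0.26, adjusted p = 3.19e-05) in the joint profile, a 113-fold drop, against 10.7%. N. plumbaginifolia stood apart in size, where the transcript fell by 1.99 (SE 0.07, adjusted p = 1.09e-11), a 3.98-fold drop, against 18.1% of transcripts.

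XM_016582512.1 fell by 8.52 (SE 0.11, adjusted p = 4.65e-12) in N. benthamiana, a 420-fold drop. It fell by 11.57 (SE 0.31, adjusted p = 1.62e-05) in N. glauca, a 3648-fold drop. In N. plumbaginifolia it fell by 2.11 (SE 0.06, adjusted p = 6.39e-13), a 4.31-fold drop, close in size to that of XM_016644811.1. The largest folds rest on post secretory means of 2 and 5, written as whole numbers. The falls in N. rustica (adjusted p = 0.000305) and the joint profile (adjusted p = 0.000325) ended at a listed 0 and have no fold. In the authors' deposited table XM_016644811.1 is called between stage 12 and the post secretory stage in all 5 profiles, and XM_016582512.1 in each except N. rustica. The authors called 27.7% of all transcripts in N. benthamiana, 19.9% in N. glauca, 12.1% in N. rustica, 9.19% in the joint profile and 11.5% in N. plumbaginifolia.

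**Figure D2:**
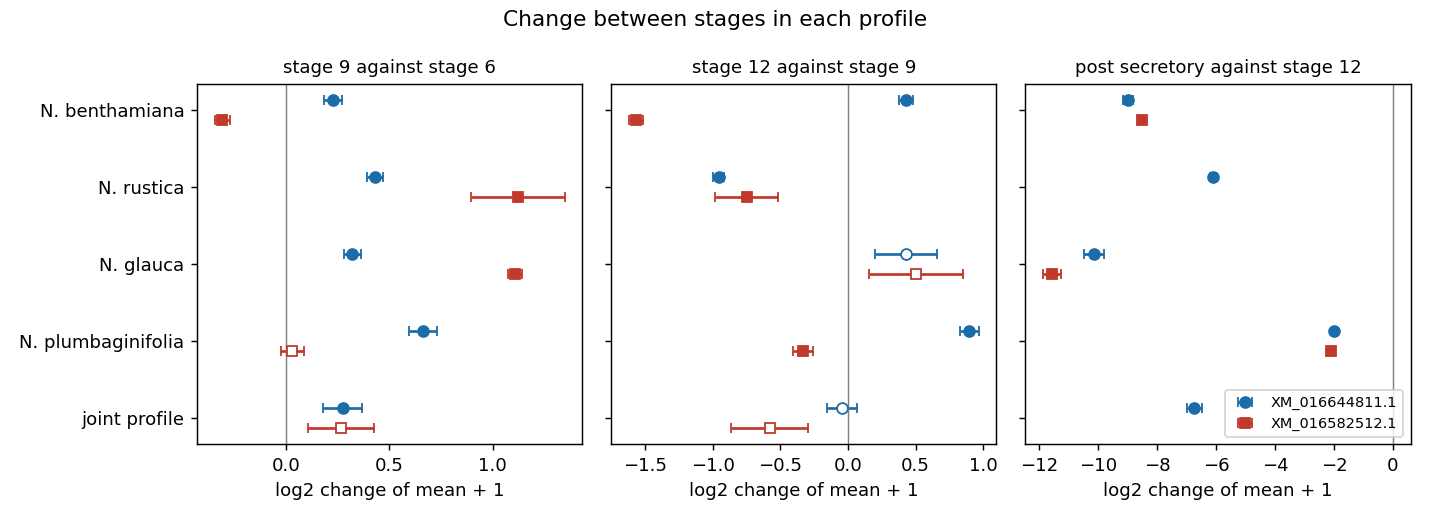
Log2 change of the authors' mean + 1 (horizontal axis) with its SE, for 3 steps between stages and the 5 profiles (vertical axis), with circles for XM_016644811.1 and squares for XM_016582512.1, filled where the adjusted p is under 0.05. Falls to a listed 0 (XM_016582512.1 after secretion in N. rustica and the joint profile) are left out, and the smallest falls after secretion are the -1.99 and -2.11 of N. plumbaginifolia.

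Whether a step had the same size in all profiles was tested with 1 F test per transcript. Between stages 6 and 9 the size of the change differed for XM_016644811.1 (F = 8.59, adjusted p = 0.000337) and for XM_016582512.1 (F = 57.1, adjusted p = 2.42e-12), as it did for 50.8% of all transcripts. For XM_016644811.1 that call was lost without N. plumbaginifolia (F = 2.31, adjusted p = 0.168), whose rise was the largest. From stage 9 to stage 12 both differed (F = 34.0, adjusted p = 5.93e-09, and F = 10.9, adjusted p = 0.000111), against 43.4%. After secretion both differed (F = 183, adjusted p = 2.00e-15, and F = 158, adjusted p = 5.48e-15), against 48.3%. Without N. plumbaginifolia the last values were F = 54.0 (adjusted p = 2.58e-08) and F = 83.4 (adjusted p = 1.07e-09), so the sizes also differed among the other 4 profiles. About as many transcripts differed as did not, and the calls are a description of this pair, not a feature of it alone.

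With the profiles as replicates (limma, 12 residual degrees of freedom), only the fall after secretion passed. XM_016644811.1 fell by 6.80 (SE 0.97, adjusted p = 0.00565) and XM_016582512.1 fell by 6.65 (SE 1.06, adjusted p = 0.0104), each lower in 5 of 5 profiles, where 0.554% of 36627 transcripts fell. Both calls were lost when N. benthamiana, N. rustica, N. glauca or the joint profile was left out, with adjusted p from 0.0585 to 0.0757 for XM_016644811.1 and from 0.0627 to 0.102 for XM_016582512.1. They were also lost without the 3 groups of widest spread (adjusted p = 0.208 and 0.185), and that of XM_016582512.1 with a pseudocount of 10 (adjusted p = 0.0503). Without N. plumbaginifolia the estimates were -8.00 (adjusted p = 2.73e-05) and -7.78 (adjusted p = 0.00313). Between stages 6 and 9 XM_016644811.1 had an estimate of 0.38 (SE 0.97, adjusted p = 0.939), higher in 5 of 5 profiles, and XM_016582512.1 had 0.44 (SE 1.06, adjusted p = 0.934), higher in 4. Between stages 9 and 12 the estimates were 0.15 (adjusted p = 0.996, higher in 3) and -0.55 (adjusted p = 0.984, higher in 1). In these steps limma placed 0 of all transcripts past the threshold, with 2990 and 1776 at an unadjusted p under 0.05. Between stages 6 and 12 the estimates were 0.53 (adjusted p = 0.803, higher in 4) and -0.10 (adjusted p = 0.970, higher in 2). Each transcript had the same SE at every step, 0.97 and 1.06, because its residual variance was shared over all stages. That variance takes in the fall after secretion, which ran from -10.15 to -1.99 and from -11.57 to -2.11 between profiles. These fits therefore cannot decide whether the smaller changes before anthesis were shared by the profiles.

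The difference between the pair in log2 change is given over the profiles as a description, since 5 profiles cannot pass 0.05. XM_016644811.1 minus XM_016582512.1 averaged -0.06 (SD 0.66) from stage 6 to 9 (p = 0.75), 0.70 (SD 0.92) from stage 9 to 12 (p = 0.25) and -0.15 (SD 1.10) after secretion (p = 0.625), by exact two-sided sign-flipping over n = 5 profiles, which cannot give a p under 0.0625. In the step from stage 9 the difference ran from -0.21 in N. rustica to 2.00 in N. benthamiana.

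Because transcript lengths are not given, the levels of the pair cannot be compared with each other, but their ratio can be compared between groups of the same profile. Between profiles the ratio also takes in how reads of each species map to each N. tabacum copy, which was not tested. XM_016582512.1 over XM_016644811.1 went from 3.06 at stage 6 to 2.11 at stage 9 and 0.528 at stage 12 in N. benthamiana. In N. plumbaginifolia it went from 6.74 to 4.35 and 1.85. In N. glauca it went the other way, from 2.95 to 5.09 and 5.35. The ratio was between 0.00365 and 0.00691 at these stages in N. rustica and between 0.0463 and 0.0675 in the joint profile. The ratio thus fell with maturation in the first pair of species and, as mapped to N. tabacum, was lowest by far in N. rustica.

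Of the other 3 transcripts described as MYB305, KC792284.1 and XM_016651243.1 were high in both profiles where XM_016582512.1 was low, and XM_016584086.1 in N. rustica only. KC792284.1, the N. tabacum MYB305 cDNA, had means of 2336 (SD 132), 3280 (SD 192), 1657 (SD 69) and 28 (SD 17) over the 4 stages of N. rustica. In the joint profile it had 2578 (SD 180), 1878 (SD 124), 1249 (SD 124) and 24 (SD 11), and it is listed at 0 in every other group. XM_016651243.1 had 8224 (SD 317), 7504 (SD 543), 5213 (SD 746) and 72 (SD 24) in the joint profile and 2573 (SD 50), 3832 (SD 173), 1507 (SD 74) and 24 (SD 1) in N. rustica. Its highest mean elsewhere was 166, at stage 6 of N. plumbaginifolia, and it is listed at 0 in N. benthamiana. XM_016584086.1 reached 2320 (SD 35) at stage 9 of N. rustica, was at most 38 in N. benthamiana, and is listed at 0 in N. glauca and the joint profile. Each of these 3 also fell after secretion within N. rustica, with changes of -5.84 (KC792284.1, adjusted p = 0.000168), -5.91 (XM_016651243.1, adjusted p = 3.4e-06) and -5.67 (XM_016584086.1, adjusted p = 7.7e-05). There 17.6% of all transcripts fell. Over the profiles none of them passed in limma (adjusted p = 0.277, 0.0701 and 0.245 in that order).

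The 5 transcripts were also added together. The sum at stage 6 was 14388 in N. benthamiana, 12653 in the joint profile, 10424 in N. rustica, 8169 in N. glauca and 5963 in N. plumbaginifolia. At stage 12 it was 8554, 8585, 7648, 21696 and 6414 in that order, and after secretion 18, 114, 122, 7 and 1535. The sum fell by 6.89 after secretion over the profiles (SE 0.99, adjusted p = 0.00565). This sum was added after seeing the data. It is free of how reads were divided among these 5 only if each shared read was counted once, which is not known. The share of all transcripts at 0 ran from 18.9% at stage 12 of the joint profile to 38.1% at stage 6 of N. plumbaginifolia. The part of mapping to N. tabacum in the differences between profiles was not tested.

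**Figure D3:**
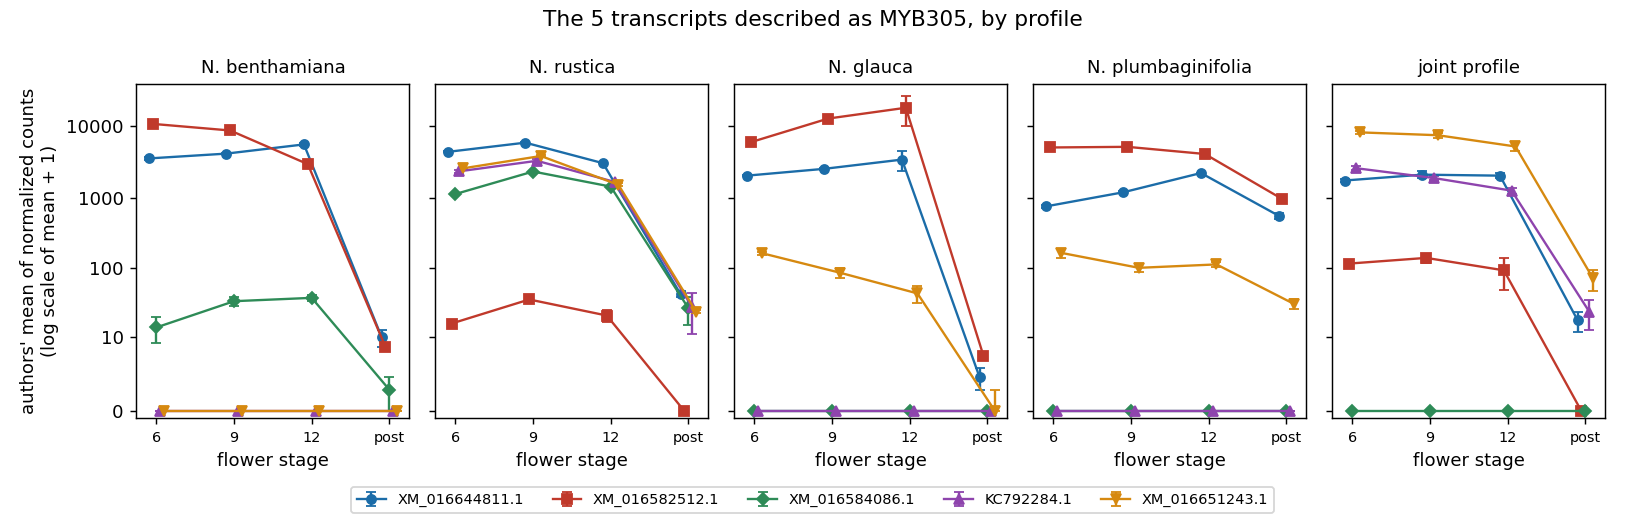
Authors' mean of normalized counts (vertical axis, log scale of mean + 1) with the authors' SD (n = 3) for the 5 transcripts described as MYB305 (colours and symbols, slightly offset) at each flower stage, 1 panel per profile. Where XM_016582512.1 is low, in N. rustica and the joint profile, KC792284.1 and XM_016651243.1 stay at 1249 or above up to stage 12.

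The tissues of N. plumbaginifolia separated the pair further. XM_016644811.1 had a mean of 409 (SD 104) in ovary and 13 (SD 1) in sepal, and is listed at 0 in leaf. XM_016582512.1 had 1343 (SD 311) in ovary and 1041 (SD 24) in sepal, and is also listed at 0 in leaf. The ratio of the second to the first was accordingly 3.28 in ovary and 80.1 in sepal, against 1.71 to 6.74 in the nectary. XM_016584086.1 had 261 (SD 21) in sepal alone among the N. plumbaginifolia groups.

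XM_016644811.1 was higher in the nectary than in ovary and sepal at anthesis, and higher than in sepal after secretion. At stage 12 it stood 2.43 (SE 0.15, adjusted p = 9.67e-08) above ovary, 5.40-fold, where 32.5% of transcripts were higher in the nectary. It stood 7.30 (SE 0.10, adjusted p = 2.19e-21) above sepal, a 170-fold difference, where 40.7% were higher. After secretion it was still 5.31 (SE 0.15, adjusted p = 3.57e-20) above sepal, against 40.7%. Its difference of 0.44 from ovary (SE 0.16, adjusted p = 0.0293), against 31.8%, was lost with a pseudocount of 10 (adjusted p = 0.0529) and without a variance trend (adjusted p = 0.0834). The gap of 146 between these means was below their summed SDs of 153.

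XM_016582512.1 was 3.05-fold higher in stage 12 nectary than in ovary (1.61, SE 0.15, adjusted p = 2.06e-06) and 3.93-fold higher than in sepal (1.97, SE 0.05, adjusted p = 2.13e-17). After secretion the nectary mean of 949 was below those of ovary and sepal, but neither call held after rescaling. The nectary then had -0.50 against ovary (SE 0.14, adjusted p = 0.00847), where 46% of transcripts were lower in the nectary, and the call was lost after rescaling (-0.28, adjusted p = 0.105). Against sepal it had -0.13 (SE 0.06, adjusted p = 0.0289), where 47.6% of transcripts were lower in the nectary. That difference became 0.010 (adjusted p = 0.866) after rescaling and did not pass without a variance trend (adjusted p = 0.139). Ovary and sepal differed by 4.87 (SE 0.20, adjusted p = 1.88e-08) for XM_016644811.1, where 41.7% of transcripts were higher in ovary. For XM_016582512.1 the difference was 0.37 (SE 0.15, adjusted p = 0.0431), from means whose gap of 302 was below their summed SDs of 335. That call was lost after rescaling (0.29, adjusted p = 0.100), with a pseudocount of 10 (adjusted p = 0.0588), with a minimum mean of 100 (adjusted p = 0.0525) and without a variance trend (adjusted p = 0.0945).

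**Figure D4:**
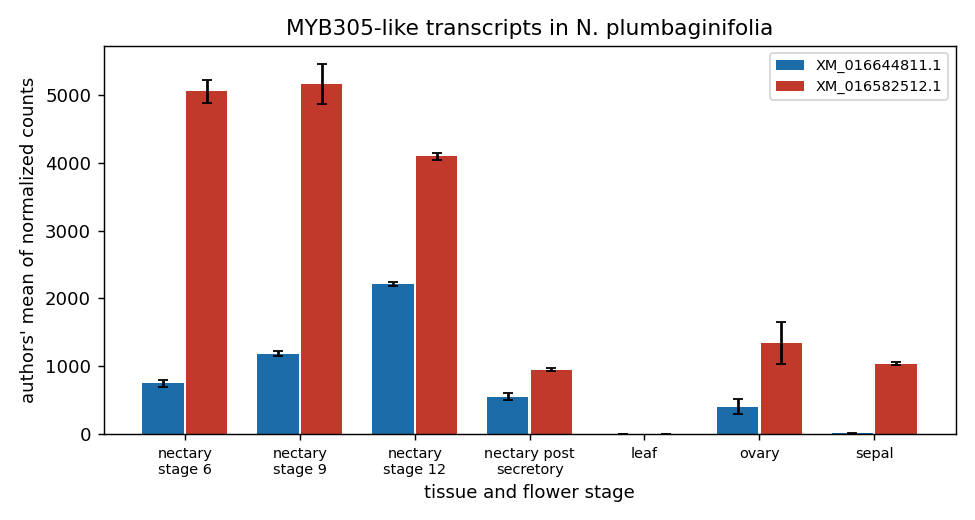
Authors' mean of normalized counts (vertical axis, linear) with the authors' SD (n = 3) in the 7 N. plumbaginifolia groups, blue for XM_016644811.1 and red for XM_016582512.1. Both are listed at 0 in leaf, and in sepal XM_016582512.1 has 1041 and XM_016644811.1 has 13.

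Markers of neighbouring tissue were read beside these levels. Pistil-specific extensins, listed as markers of the style, summed over the 4 stages of N. plumbaginifolia to 1175, 8027, 3969 and 3940, with 12596 in ovary, 2 in sepal and 2454 in leaf, which holds no style. Most of the nectary sum was XM_016659538.1, with 3572 at stage 12, 6109 in ovary and 2422 in leaf, while XM_016587754.1 had 183 at stage 12, 6349 in ovary and 0 in leaf. At every stage the sum was 0 or 1 in N. benthamiana, N. rustica and N. glauca, and in the joint profile it was 25 to 243. CRABS CLAW-like (XM_016610040.1), which marks the nectary and is needed for its formation in Arabidopsis, had means of 86, 115, 80 and 41 over the stages of N. plumbaginifolia and of 3778 to 9038 at the first 3 stages of the other profiles. In N. plumbaginifolia it had 156 in ovary and is listed at 0 in leaf and sepal. There it was thus not higher in the nectary than in ovary. The 16 ovule and carpel transcripts summed to 5083 at stage 12, 3884 after secretion and 4646 in ovary, with 6, 6 and 5 of them listed at 0. The other profiles had 4541 to 9980 at stage 12 and 1641 to 3397 after secretion. Most of the N. plumbaginifolia stage 12 sum came from transcripts matched to AT3G58780 (SHP1), with 3430 at stage 12, 1737 after secretion and 1403 in ovary. The larger part of these was XM_016580095.1, with 2770, 1073 and 746. It is described as AGAMOUS-like, so this sum is not one of SHP1 alone. The transcripts matched to AT4G09960 (AGL11) went the other way, with 1464, 1980 and 2835. From stage 6 to stage 9 the AGL11 sum went from 358 to 1988 in N. plumbaginifolia. In that step it went from 309 to 1729 in N. benthamiana and from 175 to 2521 in the joint profile. The change was smaller in N. rustica (245 to 333) and N. glauca (93 to 163). After secretion the AGL11 sum was higher in N. benthamiana (362 to 980) and N. glauca (91 to 621). It was lower in N. rustica (491 to 310) and the joint profile (2379 to 386). The part of these markers in the levels of the MYB305-like pair was not tested.

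Markers of green tissue moved with the fall after secretion. The 58 chlorophyll a-b binding and RuBisCO small chain transcripts summed to 19271 at stage 12 and 38082 after secretion in N. benthamiana. In N. glauca the sums were 2611 and 42418, and in N. plumbaginifolia 10141 and 23931. Of the 56 tested, 3 rose and 0 fell over the profiles, with a median of 1.35. Of all 36627 transcripts, 0.232% rose and 0.554% fell in that step, with a median of -0.04 and 5955 at an unadjusted p under 0.05. The sum was higher after secretion in all 5 profiles, and leaf, with 556478, had neither MYB305-like transcript. Of 15 ovule and carpel transcripts 1 fell (median -0.10), and of 3 petal and stamen, 22 pollen-named, 3 style and 4 phloem transcripts 0 passed in limma, with 0, 11, 0 and 3 at an unadjusted p under 0.05 and medians of -0.31, 0.98, -0.24 and 1.95. Their part in the fall was not tested.

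Among genes linked to MYB305 from earlier work, members of the nectarin, sugar export and regulator lists passed with it after secretion. All values here are limma estimates over the 5 profiles, where the median of all 36627 transcripts was -0.04, with 85 risen (0.232%) and 203 fallen (0.554%). Of 6 nectarin transcripts 1 rose and 1 fell (median -1.22). The nectar protein nectarin-1, of the germin family (XM_016580669.1), fell by 4.33 (SE 0.61, adjusted p = 0.00502, lower in 5 of 5), and nectarin-1-like (XM_016657282.1) rose in all 5 profiles, by an estimate of 1.22 (SE 0.21, adjusted p = 0.0169). Of 13 nectary sugar export transcripts 4 fell and 0 rose (median -0.34), namely the NEC1-like sugar transporters XM_016615427.1 with -7.01 (adjusted p = 0.0272) and XM_016577514.1 with -5.13 (adjusted p = 0.0315), the cell wall invertase XM_016593154.1 with -5.29 (adjusted p = 0.00736) and the sucrose-phosphate synthase XM_016607051.1 with -2.30 (adjusted p = 0.036). Of 7 other nectary regulators 1 fell (median -0.90), CRABS CLAW-like with -5.07 (adjusted p = 0.00502).

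The remaining pathway lists had 0 members past limma's threshold in that step, so unadjusted p under 0.05 are counted beside them, against 5955 of all transcripts. Starch synthesis had 2 such among 37 transcripts (median 0.04) and starch breakdown 2 among 42 (median -0.02). Phenylpropanoid and flavonoid synthesis had 5 among 30 (median 0.12). Jasmonate synthesis had 7 among 26 (median 0.12), and jasmonate perception with its JAZ repressors 2 among 20 (median -0.13). The auxin response factors ARF6 and ARF8 had 0 among 11 (median 0.09), and DELLA, the repressors of gibberellin responses, 1 among 4 (median 0.39).

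The transcripts whose pattern was most like that of each member were ranked by Pearson's r of log2 mean plus 1. Over all 23 groups, XM_016644811.1 was closest to the cell wall invertase XM_016593154.1 (r = 0.931), which splits sucrose outside the cell, and to the transporter DETOXIFICATION 55 (XM_016630739.1, r = 0.914). XM_016582512.1 was closest to a 3-ketoacyl-CoA synthase of very long chain fatty acid synthesis (KJ423103.1, r = 0.855) and to B-box zinc finger protein 20-like (XM_016629035.1, r = 0.846). The pair had r = 0.631 with each other, which placed XM_016582512.1 at rank 201 for XM_016644811.1, and XM_016644811.1 at rank 375 for XM_016582512.1, among 37732 transcripts.

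Likeness was also ranked with each profile's level removed. Over the 20 nectary means less their profile's mean, XM_016644811.1 and XM_016582512.1 had r = 0.972, rank 5 for the first and rank 1 for the second among 36626 transcripts. XM_016644811.1 was closest to CRABS CLAW-like (r = 0.985) and to a pair of carotenoid cleavage dioxygenases, XM_016643297.1 (r = 0.977) and KC747730.1 (r = 0.974), enzymes that cut carotenoids into volatiles. XM_016582512.1 was next closest to the invertase XM_016593154.1 (r = 0.965), to phytoene desaturase of carotenoid synthesis (XM_016642616.1, r = 0.965) and to CRABS CLAW-like (r = 0.962). These means share libraries and scaling, and the correlations are given as a description. The fall after secretion is shared by both members in every profile and is in these values, which do not show that the pair moved together before anthesis: between stages 9 and 12 they went opposite ways in N. benthamiana and N. plumbaginifolia.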

How the data were processed

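The deposited table gives, per group of 3 libraries, the authors' mean and SD as values of unit score: normalized counts, by the deposited column names, rounded to whole numbers; the submitters' processing notes name DESeq. Its deposited yes or no calls are the authors' own, with no threshold given. The sources used here do not give aligner, build or depth. Changes are in log2 of mean plus a pseudocount of 1, which understates the change of low transcripts. R 4.3.3 with limma 3.58.1 was used, with tables in Python 3.11.15 (pandas 2.3.3, numpy 2.4.6) and figures in matplotlib 3.10.9. Tests took transcripts that averaged at least 10 in the groups compared, p-values were Benjamini-Hochberg adjusted over all of them and the threshold was 0.05. Within a profile, group variances came from the SDs by the delta method (4 degrees of freedom, moderated with a trend), an approximation that assumes near-normal logs. P-values there measure only the spread between libraries, which may be technical. Over the profiles, limma was fitted to the group means with profile as a block. The scripts were tested on simulated data. The members and lists were chosen with earlier results of these data known. Named are the 2 members, the other MYB305 transcripts, the most alike transcripts by correlation (the first of the 5 highest), some of the 2 most abundant of each list, and list members past the threshold.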

Additional observations from a re-analysis of the deposited data

Results flagged for a closer look

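The change between stages differed between the 5 profiles for both transcripts at every step, by the F test of that difference (limma variances, adjusted over all transcripts). Such a call was common, with 50.8%, 43.4% and 48.3% of all transcripts over the 3 steps, and that of XM_016644811.1 from stage 6 to 9 was lost without N. plumbaginifolia (adjusted p = 0.168). From stage 6 to stage 9 the adjusted p was 0.000337 for XM_016644811.1, whose log2 changes ran from 0.23 in N. benthamiana to 0.66 in N. plumbaginifolia, and 2.42e-12 for XM_016582512.1, from -0.31 in N. benthamiana to 1.12 in N. rustica. From stage 9 to stage 12 it was 5.93e-09 for XM_016644811.1, from -0.96 in N. rustica to 0.90 in N. plumbaginifolia, and 0.000111 for XM_016582512.1, from -1.57 in N. benthamiana to 0.50 in N. glauca. After secretion it was 2.00e-15 for XM_016644811.1 and 5.48e-15 for XM_016582512.1, with the smallest falls of both in N. plumbaginifolia (-1.99 and -2.11).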

How the results depend on the processing

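No paired analysis was possible because the table gives group means and no values per library, so leaving out libraries and a replicate block were not run. Leaving out groups with a 5-fold higher sum of the 16 ovule and carpel transcripts gave no value, since no group reached that limit. The largest was 1.51 times its stage 6 value, at stage 9 of the joint profile. Transcripts matched to AT3G58780 made up most of each stage 6 sum, so this limit says little about single markers. Those matched to AGL11 went from 309 to 1729 (stages 6 to 9) in N. benthamiana, 358 to 1988 in N. plumbaginifolia and 175 to 2521 in the joint profile. They went from 245 to 333 in N. rustica and 93 to 163 in N. glauca.

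Over the profiles, the fall after secretion of XM_016644811.1 ranged from -8.00 to -5.96 without 1 profile in turn and was -6.34 (adjusted p = 0.208) without the 3 groups of widest spread. That of XM_016582512.1 ranged from -7.78 to -5.41, was -6.68 (adjusted p = 0.185) without those groups and -4.96 (adjusted p = 0.0503) with a pseudocount of 10. The uncalled step from stage 9 to 12 of XM_016644811.1 turned to -0.18 without the widest groups, to -0.23 with the pair summed, to -0.31 with all 5 transcripts summed and to -0.036 without N. plumbaginifolia (range without 1 profile -0.036 to 0.43). Between stages 6 and 12 it turned to -0.048 with all 5 summed, and XM_016582512.1 to 0.095 with the pair summed and to 0.34 without N. benthamiana (range without 1 profile -0.53 to 0.34).

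Within profiles, the summed pair gave -0.16, -0.60 and -0.76 (stages 6 to 9, 9 to 12 and 6 to 12) in N. benthamiana, where XM_016644811.1 alone rose. It gave -0.52 from stage 6 to 12 in N. rustica, 0.13, -0.0091 and 0.12 in N. plumbaginifolia, and 0.27 (6 to 9) and 0.20 (6 to 12) in the joint profile. In the joint profile XM_016644811.1 did not pass after rescaling (0.25 and 0.17) or without a variance trend (0.27 and 0.23). Against tissues after secretion, XM_016644811.1 against ovary did not pass with a pseudocount of 10 (0.43) or without a trend (0.44). XM_016582512.1 had -0.28 against ovary and 0.010 against sepal after rescaling, and -0.13 against sepal without a trend did not pass. Its difference between ovary and sepal, an addition made after seeing the data, did not pass with a pseudocount of 10 (0.36), with a minimum mean of 100 (0.37), after rescaling (0.29) or without a trend (0.37). The F test of XM_016644811.1 from stage 6 to 9 ranged from 2.31 to 17.9 without 1 profile in turn. Rescaling moves nectary against ovary by 0.22 to 0.23 and against sepal by 0.14 to 0.15 on the log2 scale.

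Transcripts past the threshold after secretion numbered 288, and 463 with a minimum mean of 100, 4 without the widest groups, 1967 with both copies counted and 2 to 724 without 1 profile. Between stages 6 and 12 they numbered 307, and 546, 72, 2275 and 4 to 114 in that order. Between stages 6 and 9 they numbered 0, 111 with both copies and 3 without N. glauca, and from 9 to 12 they numbered 0, 2 with the higher minimum and 3 with both copies.

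The cause of these shifts was not tested. Depth is unknown, so means of 0 and the low means of XM_016582512.1 in N. rustica carry an unknown counting error.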

Other observations

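A second CRABS CLAW-like transcript, XM_016582089.1, had means of 2266, 1481, 899 and 39 over the 4 stages of the joint profile and is listed at 0 in every other group. The carotenoid cleavage dioxygenase KC747730.1 had its highest mean, 88275, at stage 9 of N. glauca, where XM_016582512.1 had 12871, and 1005 after secretion. The invertase XM_016593154.1 had means of 15606, 13221, 14047 and 162 over the stages of the joint profile, and of 10114 at stage 12 and 3056 after secretion in N. plumbaginifolia, where it is listed at 0 in leaf, with 473 in ovary and 22 in sepal.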
